A study of Mus musculus with 49 samples.

Results

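The genes described here are 8 members of the cholesterol synthesis pathway: the enzymes Hmgcs1, Idi1, Fdft1, Sqle, Lss, Cyp51 and Dhcr7, and Srebf2, the transcription factor that switches the pathway on. They were taken by symbol: every probe set (the group of short probes that reads 1 transcript on the array) whose platform annotation gave 1 of these symbols alone was used. The genes, and the gene lists below, were chosen with earlier results of these data known. Their counts beside the shares of all probe sets are therefore descriptions. Of the 8 genes, 7 had such a probe set, with 11 probe sets in all, out of 11807 named genes and 22626 probe sets tested. Idi1 and Srebf2 had 2 probe sets each, Cyp51 had 3, and Fdft1, Sqle, Lss and Dhcr7 had 1 each. Hmgcs1 was not analysed here, and 1 probe set annotated to Srebf2 together with other genes was not used. On GRCm38.p6, by RefSeq, Srebf2 lies at chr15:82147269-82205379 and Sqle at chr15:59315092-59331193, Idi1 at chr13:8885606-8892396 and Hmgcs1 at chr13:119690351-119708260, Fdft1 at chr14:63145150-63181687, Lss at chr10:76531565-76557139, Cyp51 at chr5:4080674-4104697 and Dhcr7 at chr7:143823167-143848410.

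The neuronal cell layers of hippocampal CA1, CA3 and dentate gyrus (DG) were laser captured from female mice aged 6.1 months and profiled on Affymetrix arrays, 1 array per layer and mouse. DN (double negative) littermates carried neither transgene, tTA littermates expressed a tetracycline-controlled transactivator from the Camk2a promoter, which is active in forebrain excitatory neurons, and the rTg4510 animals had the same driver plus a tTA-responsive human tau transgene with the P301L mutation. The 17 mice (6 DN, 5 tTA and 6 rTg4510) gave 49 arrays in 9 groups of 5 or 6. The comparison of rTg4510 with tTA bears on the tau transgene in animals that all make tTA, and the comparison of tTA with DN on the tTA transgene itself. The parental lines came from different strains, and whether littermates differed in background beyond the transgenes was not examined. The DN mice carried higher animal numbers (mouse4797 to mouse4886) than the tTA and rTg4510 mice (mouse4535 to mouse4666). Values are the log2 RMA values of the deposited table, on which 1 unit is a 2-fold difference, and each error is an SD over mice unless stated otherwise. A difference was called when its limma adjusted p, corrected over all 22626 probe sets, was below 0.05.

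The labelled layers held their defining transcripts in DN mice. These marker genes were picked after values were seen, so that they describe the captures and do not test the labels. Wfs1 and Pou3f1, which mark CA1 pyramidal cells, averaged 12.20 and 9.71 in CA1 against at most 8.79 and 6.56 in the other layers. Bok was highest in CA3 (9.72), and the granule cell genes Prox1 and Dsp were highest in DG (7.98 and 10.88). Array medians lay between 4.95 and 5.06. The 3-prime minus 5-prime difference of the Actb control probe sets, a measure of RNA integrity and amplification, averaged from -0.45 to -0.30 in the DN groups, from -0.70 to -0.61 in the tTA groups and from -0.63 to -0.48 in the rTg4510 groups. Captured layers hold many cells, so that fewer cells of a type and less RNA per cell cannot be told apart in any value below.

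Cells build cholesterol from acetyl-CoA through mevalonate, isoprenoid diphosphates, squalene and lanosterol. When sterols in the endoplasmic reticulum run low, the protein SCAP escorts SREBP-2, the product of Srebf2, to the Golgi, where the proteases encoded by Mbtps1 and Mbtps2 release its transcription factor part. This fragment binds sterol regulatory elements in the promoters of nearly all genes of the pathway and of Srebf2 itself, usually beside NF-Y and Sp1 sites. The brain makes its own cholesterol behind the blood-brain barrier. In the adult most of it is made by glia and handed to neurons on apolipoprotein E, while neurons dispose of surplus sterol through the 24-hydroxylase Cyp46a1.

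The promoters of these genes are shown because the pathway is known for its shared promoter elements. RefSeq windows on GRCm38.p6 were matched by symbol for 6 of the 8 genes, Fdft1 and Sqle being the others, and the 250 bases before each annotated transcription start were searched on both strands for 4 motifs. These were the sterol regulatory element core TCACNCCA, the palindromic E-box form TCACGTGA that SREBP proteins also bind, the NF-Y box CCAAT and the Sp1 box GGGCGG, of which TCACNCCA and CCAAT can share bases and did not do so here. Capitals mark matches to any of these motifs in the windows of Srebf2 and Hmgcs1, which held the sterol core, and of Idi1 and Cyp51, whose transcripts are followed through the results below.
Srebf2, chr15:82147019-82147268, plus strand: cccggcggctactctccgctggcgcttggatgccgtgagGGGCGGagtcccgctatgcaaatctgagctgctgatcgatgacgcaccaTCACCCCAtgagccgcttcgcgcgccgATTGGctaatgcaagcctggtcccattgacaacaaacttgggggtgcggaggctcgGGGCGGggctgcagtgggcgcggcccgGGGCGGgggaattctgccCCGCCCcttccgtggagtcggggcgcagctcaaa
Hmgcs1, chr13:119690101-119690350, plus strand: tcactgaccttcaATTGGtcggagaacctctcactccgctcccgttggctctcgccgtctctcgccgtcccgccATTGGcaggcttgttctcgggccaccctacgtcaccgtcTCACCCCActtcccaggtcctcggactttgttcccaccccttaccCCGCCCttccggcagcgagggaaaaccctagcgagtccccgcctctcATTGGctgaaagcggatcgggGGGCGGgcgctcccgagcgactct
Idi1, chr13:8885356-8885605, plus strand: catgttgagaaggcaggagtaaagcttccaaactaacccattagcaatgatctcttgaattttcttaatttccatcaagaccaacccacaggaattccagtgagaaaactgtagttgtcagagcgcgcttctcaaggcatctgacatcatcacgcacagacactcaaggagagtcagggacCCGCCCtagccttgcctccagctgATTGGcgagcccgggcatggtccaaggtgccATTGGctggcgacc
Cyp51, chr5:4104698-4104947, minus strand: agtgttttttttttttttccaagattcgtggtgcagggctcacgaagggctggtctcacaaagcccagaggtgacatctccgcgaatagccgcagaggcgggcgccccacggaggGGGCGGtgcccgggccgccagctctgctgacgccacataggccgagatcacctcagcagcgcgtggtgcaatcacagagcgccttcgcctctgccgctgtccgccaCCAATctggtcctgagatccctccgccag
The sterol core was found as TCACCCCA in Srebf2, at position -162 from the start, and in Hmgcs1, at position -137. It was present in 3.67% of all 32851 windows of this length. A CCAAT box was found in all 6 genes against 33.8% of all windows, and a GGGCGG box in all 6 genes against 32.7%. The E-box form, held by 0.785% of all windows, was found in none of the 6 genes. The members were counted by gene and the shares over all by window. Dhcr7 has 3 annotated starts: the first had a GGGCGG box but no CCAAT box, the second had no match and the third had both boxes. These are matches of letters and do not show binding.

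**Figure D1:**
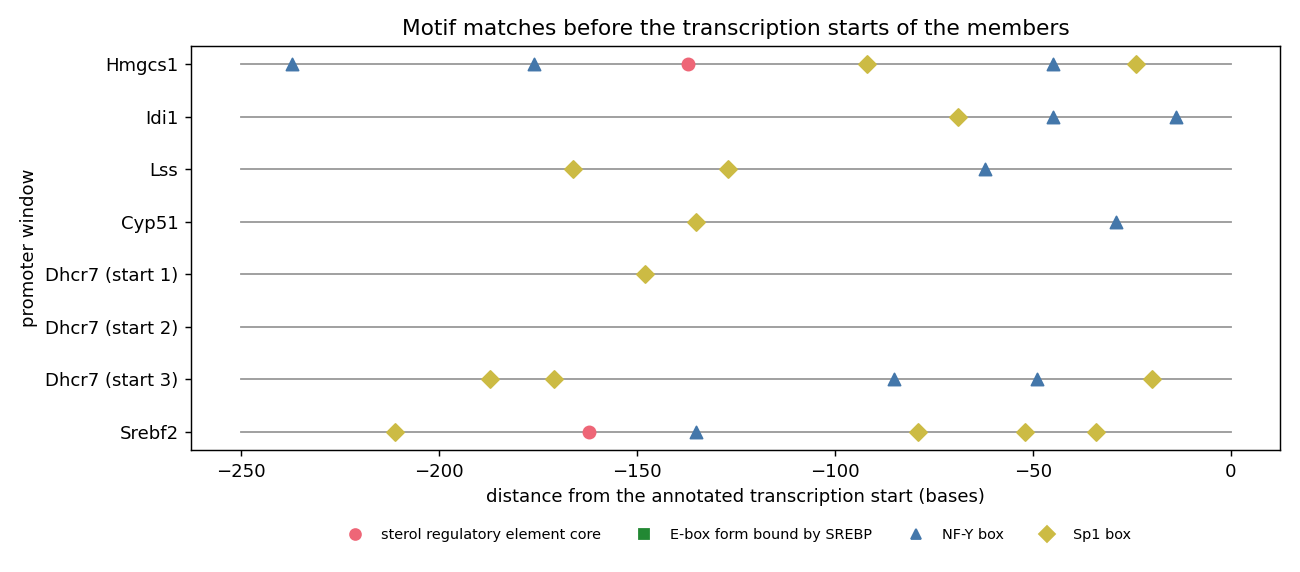
Motif matches in the 250 bases before each annotated transcription start of 6 member genes, with distance from the start in bases on the x axis and 1 line per start. Red circles (sterol core) fall in Hmgcs1 and Srebf2, blue triangles (NF-Y box) and yellow diamonds (Sp1 box) fall in every gene, and the second start of Dhcr7 has no match.

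Within each genotype the mean of every measured enzyme except Lss, by its brightest probe set, was highest in CA3, while across the 9 groups Srebf2 was lowest in 2 of the 3 DG groups and in rTg4510 CA1. Sqle, squalene epoxidase and a rate-limiting step after HMG-CoA reductase, had the widest range, from 7.86 ± 0.08 (n = 5) in DN CA3 down to 5.96 ± 0.44 (n = 6) in rTg4510 DG, which is 3.73-fold. Fdft1, squalene synthase, spanned 3.22-fold, Cyp51, the lanosterol 14-alpha-demethylase, 2.12-fold, Idi1, isopentenyl-diphosphate isomerase, 2.05-fold, Srebf2 2.03-fold and Dhcr7, which carries out the last reduction to cholesterol, 1.91-fold. Lss, lanosterol synthase, read below the median probe set (5.04) in 8 of the 9 groups and spanned 1.41-fold, and none of the 8 steps between neighbouring groups in its order exceeded the larger SD of the pair. tTA CA3 had the highest group mean of Idi1, Fdft1, Cyp51 and Dhcr7, and rTg4510 CA1 the lowest of all 4.

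The order of the groups was clearest for Sqle. It ran DN CA3, tTA CA3, rTg4510 CA3 and DN CA1, each separated from the next by more than the larger SD, and then the remaining 5 groups, whose neighbours did not differ beyond their spread. Idi1 began with tTA CA3 (10.83 ± 0.17, n = 5) and DN CA3 (10.60 ± 0.04, n = 5) and ended with rTg4510 CA1 (9.80 ± 0.24, n = 5), and these 3 steps alone exceeded the spread. Srebf2 by its brighter probe set, 1426744_at, fell into an upper 6 groups between 6.52 and 6.69 and a lower 3, DN DG, rTg4510 CA1 and rTg4510 DG, between 5.67 and 5.89, with 1 step between neighbours that exceeded the spread. Its other probe set, 1452174_at, kept the same 3 groups lowest, between 5.54 and 5.75.

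**Figure D2:**
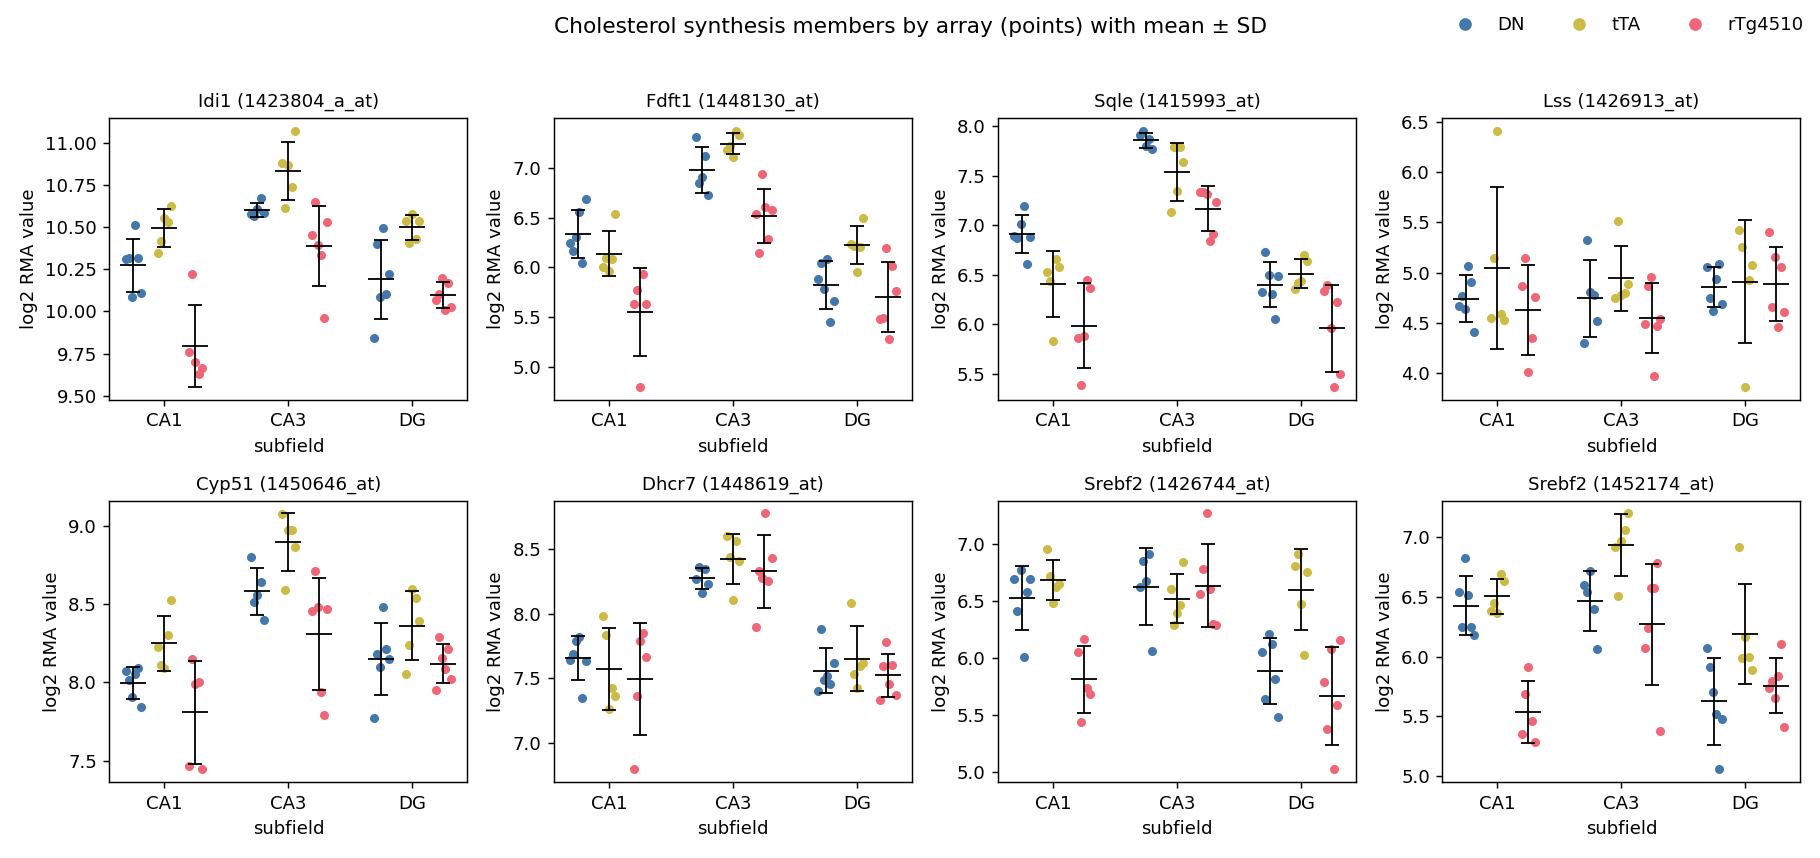
Each point is 1 array, grouped by subfield on the x axis and coloured by genotype, with the log2 RMA value on the y axis and the group mean ± SD in black; the brightest probe set of each gene and both Srebf2 probe sets are shown. Sqle, Fdft1, Cyp51, Dhcr7 and Idi1 stand highest in CA3 within each genotype by their group means, and the rTg4510 CA1 arrays stand low for Idi1 and for both Srebf2 probe sets.

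In DN mice, which carry no transgene, the measured member enzymes except Lss were higher in CA3 than in DG or CA1 by their brightest probe sets. Lss differed by -0.11 between CA3 and DG, not called. Of the 11 member probe sets, 8 were higher in CA3 than in DG, for 6 of the 7 genes, against 11.3% of all probe sets that were higher, and none was lower, against 10.4%. Sqle lay between 7.77 and 7.96 in the 5 CA3 arrays. In DG it ran from 6.06 through a median of 6.41 to 6.73 over 6 arrays. Every CA3 array was thus above every DG array, and the difference was 1.47 ± 0.16 (SE), a 2.76-fold excess (adjusted p = 7.45e-10). Fdft1 was 2.24-fold higher in CA3 (1.16 ± 0.16 SE, adjusted p = 8.58e-08) and Dhcr7 1.65-fold (0.72 ± 0.13 SE, adjusted p = 4.37e-05). Idi1 was higher by both probe sets (0.42 and 0.47), Cyp51 by its brightest (0.43, adjusted p = 0.00951) and Srebf2 by both (0.73 and 0.84, adjusted p = 0.00125 and 0.000219). The Cyp51 call was lost without mouse4797 (0.30, adjusted p = 0.139).

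CA1 lay below CA3 for the measured member enzymes other than Lss, by their brightest probe sets, but not for Srebf2. Lss differed by -0.002, not called. Of the 11 probe sets, 6 were lower in DN CA1 than in DN CA3 against 6.64% of all probe sets, and none was higher, against 6.26%. Sqle was 1.94-fold lower (-0.96 ± 0.16 SE, adjusted p = 1.48e-05), Fdft1 1.56-fold (-0.65, adjusted p = 0.00228), Dhcr7 1.54-fold (-0.62, adjusted p = 0.000559) and Cyp51 by its brightest probe set 1.5-fold (-0.59, adjusted p = 0.000664). The 2 Idi1 probe sets differed by -0.33 and -0.31 (adjusted p = 0.014 and 0.025). Leaving out mouse4825, mouse4883 or mouse4886 lost the call of both, and leaving out mouse4806 that of 1451122_at, with the adjusted p reaching 0.126. For Srebf2 the differences were -0.09 (95% interval -0.44 to 0.26) and -0.04 (-0.39 to 0.32), neither called.

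Between CA1 and DG of DN mice Srebf2 differed, together with some of the enzymes. Srebf2 was higher in CA1 by both probe sets, 1.56-fold (0.64 ± 0.17 SE, adjusted p = 0.00354) and 1.75-fold (0.80 ± 0.17 SE, adjusted p = 0.000243). Sqle (0.51, adjusted p = 0.0146) and Fdft1 (0.51, adjusted p = 0.00967) were also higher, which made 4 of 11 probe sets against 8.89% of all probe sets, and none was lower, against 8.59%. Without mouse4866 the adjusted p of Sqle was 0.0905, and without mouse4886 that of Fdft1 was 0.0837. Idi1, Lss, Cyp51 and Dhcr7 did not pass the test between CA1 and DG.

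The other enzymes were read from a list of 22 pathway enzymes that holds the member enzymes too. Of these, 17 had a named probe set, 11 of them outside the members. In DN mice 10 of the 17 were higher in CA3 than in DG, against 11.3% of all probe sets, and none was lower, against 10.4%. The median difference was 0.43 against 0.01 over all probe sets. Of the 11 outside the members 5 were higher, with a median of 0.34 over the 11. Those outside the 8 members were Msmo1, the sterol C4-methyl oxidase (1.36, adjusted p = 3.32e-07), Mvd, mevalonate diphosphate decarboxylase (0.92), Nsdhl (0.81) and Hsd17b7 (0.78), which act with Msmo1 in C4 demethylation, and Fdps, farnesyl diphosphate synthase (0.74). Stard4, a cytosolic sterol carrier among the other SREBP-2 targets, was 1.24 higher in CA3 (adjusted p = 5.53e-07). CA1 lay below CA3 for 7 of the 17 enzymes, against 6.64% of all probe sets. Outside the members 2 of 11 were lower, Mvd (-0.91) and Msmo1 (-0.68). Between CA1 and DG 4 of the 17 were higher in CA1, against 8.89% of all probe sets. Lower in CA1 were 2, Lbr (-1.12) and Ebp (-0.50), against 8.59%. Markers of other cells differed between DN layers as well. Of 10 oligodendrocyte markers, 6 were lower in CA1 than in CA3 and 2 were higher in CA3 than in DG, with summed levels (anti-log values added over the list) of 1715 to 4046 in CA3, 1127 to 2221 in CA1 and 1495 to 2160 in DG. Of 10 pan-neuronal markers, 6 were higher in CA3 than in DG and 5 were lower in CA1 than in CA3. None of 10 astrocyte markers was higher in CA3 than in DG. The part of these differences in the enzyme results was not tested.

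In CA1 the members were lower in rTg4510 than in tTA mice. All 11 probe sets lay below 0, where 56.4% of all probe sets did, with a median of -0.44 against -0.03. Of the 11, 5 passed the test as lower, for Idi1, Cyp51 and Srebf2, against 4.62% of all probe sets, and none as higher, against 6.01%.

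Srebf2 fell by both of its probe sets. On 1426744_at the 5 tTA mice read 6.48, 6.62, 6.65, 6.72 and 6.96. The 5 rTg4510 mice read 5.43, 5.68, 5.73, 6.05 and 6.16. The groups did not overlap, and the difference was -0.87 (SE 0.16, 95% interval -1.20 to -0.54), a 1.83-fold lower level (adjusted p = 0.00262). On 1452174_at the tTA mice lay between 6.37 and 6.69 and the rTg4510 mice between 5.28 and 5.91, again apart, with a difference of -0.97 (SE 0.14, adjusted p = 0.00072). Both calls held without any single mouse, with adjusted p of at most 0.00876.

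Idi1, which interconverts the isoprenoid building blocks isopentenyl and dimethylallyl diphosphate, had the smallest adjusted p of the enzymes in this comparison. On 1423804_a_at the tTA mice read 10.35, 10.42, 10.53, 10.56 and 10.63. The rTg4510 mice read 9.63, 9.67, 9.70, 9.76 and 10.22. The highest rTg4510 array, from mouse4549, stood apart from the other 4 and still lay below every tTA array. The difference was -0.70 (SE 0.11), a 1.62-fold lower level (adjusted p = 0.00156). The second probe set, 1451122_at, gave -0.59 (SE 0.12, adjusted p = 0.0048), and its groups did not overlap either.

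Cyp51 by its brightest probe set read 8.09, 8.11, 8.22, 8.30 and 8.52 in tTA CA1 and 7.45, 7.47, 7.99, 8.0 and 8.15 in rTg4510 CA1. The rTg4510 values formed a low pair and 3 values near the tTA range, and the groups overlapped. Its difference of -0.44 (SE 0.13, adjusted p = 0.0452) was close to the threshold and was no longer called when tTA mouse4570, mouse4580, mouse4626 or mouse4637 was left out, or rTg4510 mouse4535 or mouse4666 (adjusted p up to 0.118). The methods' test, Fisher's least significant difference without moderation, gave an adjusted p of 0.0654 on the log2 values and 0.0613 on the anti-log values. The call was also lost with a trended and robust prior (0.0504), with only the rTg4510 and tTA arrays (0.146) and with the Actb covariate (0.179), so that 5 of the 9 alternatives did not keep it. The dimmer Cyp51 probe sets differed by -0.25 and -0.00, neither called.

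Fdft1, Sqle, Lss and Dhcr7 did not pass the test between rTg4510 and tTA in CA1. Fdft1 read 5.97, 6.00, 6.09, 6.10 and 6.54 in tTA mice and 4.80, 5.63, 5.63, 5.77 and 5.93 in rTg4510 mice, without overlap, with a difference of -0.58 (95% interval -0.97 to -0.19, adjusted p = 0.0532). Groups that did not overlap were seen for 5 of the 11 probe sets, against 6.32% of all probe sets. Sqle differed by -0.42 (-0.82 to -0.01, adjusted p = 0.188) and Dhcr7 by -0.08 (-0.48 to 0.31, adjusted p = 0.837).

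Against DN mice the members called in CA1 were Sqle, Fdft1, Idi1 and Srebf2, and Cyp51 was not called (-0.19 on its brightest probe set, adjusted p = 0.317). In rTg4510 CA1, 6 of 11 probe sets were lower, against 12.3% of all probe sets, and none was higher, against 11.1%. Sqle ran from 6.61 through a median of 6.88 to 7.19 in the 6 DN mice. It read 5.38, 5.86, 5.88, 6.37 and 6.45 in the 5 rTg4510 mice, all below the DN range, for a difference of -0.92 (SE 0.18, 1.9-fold lower, adjusted p = 0.00157). Fdft1 fell by 0.78 (adjusted p = 0.00408) and Srebf2 by 0.72 and 0.89 (adjusted p = 0.00225 and 0.000159). Idi1 differed by -0.48 on 1423804_a_at (adjusted p = 0.00436) and by -0.36 on 1451122_at (adjusted p = 0.0296). The latter call was lost when DN mouse4797, mouse4866 or mouse4886 or rTg4510 mouse4535, mouse4600 or mouse4653 was left out (adjusted p up to 0.0752). Both comparisons use the same rTg4510 arrays and are not independent.

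Between tTA and DN mice in CA1 0 of 11 member probe sets were called, against 16.2% of all probe sets. In 4 of the 9 alternatives, the methods' test on anti-log values among them, 1 was called. On the brightest Cyp51 probe set the groups touched at their edges without overlap, with 7.84 to 8.09 in DN and 8.09 to 8.52 in tTA mice, for a difference of 0.25 (95% interval -0.02 to 0.52, adjusted p = 0.188). Only Sqle had an unadjusted p below 0.05 (0.0142). The Sqle difference was -0.50 (95% interval -0.89 to -0.12, adjusted p = 0.0709), so that the tTA mean of 6.4 ± 0.33 lay between those of DN (6.91 ± 0.19) and rTg4510 (5.99 ± 0.43). For Srebf2 the tTA mean was instead 0.16 above DN on 1426744_at (-0.16 to 0.47) and 0.08 above it on 1452174_at (-0.20 to 0.36).

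**Figure D3:**
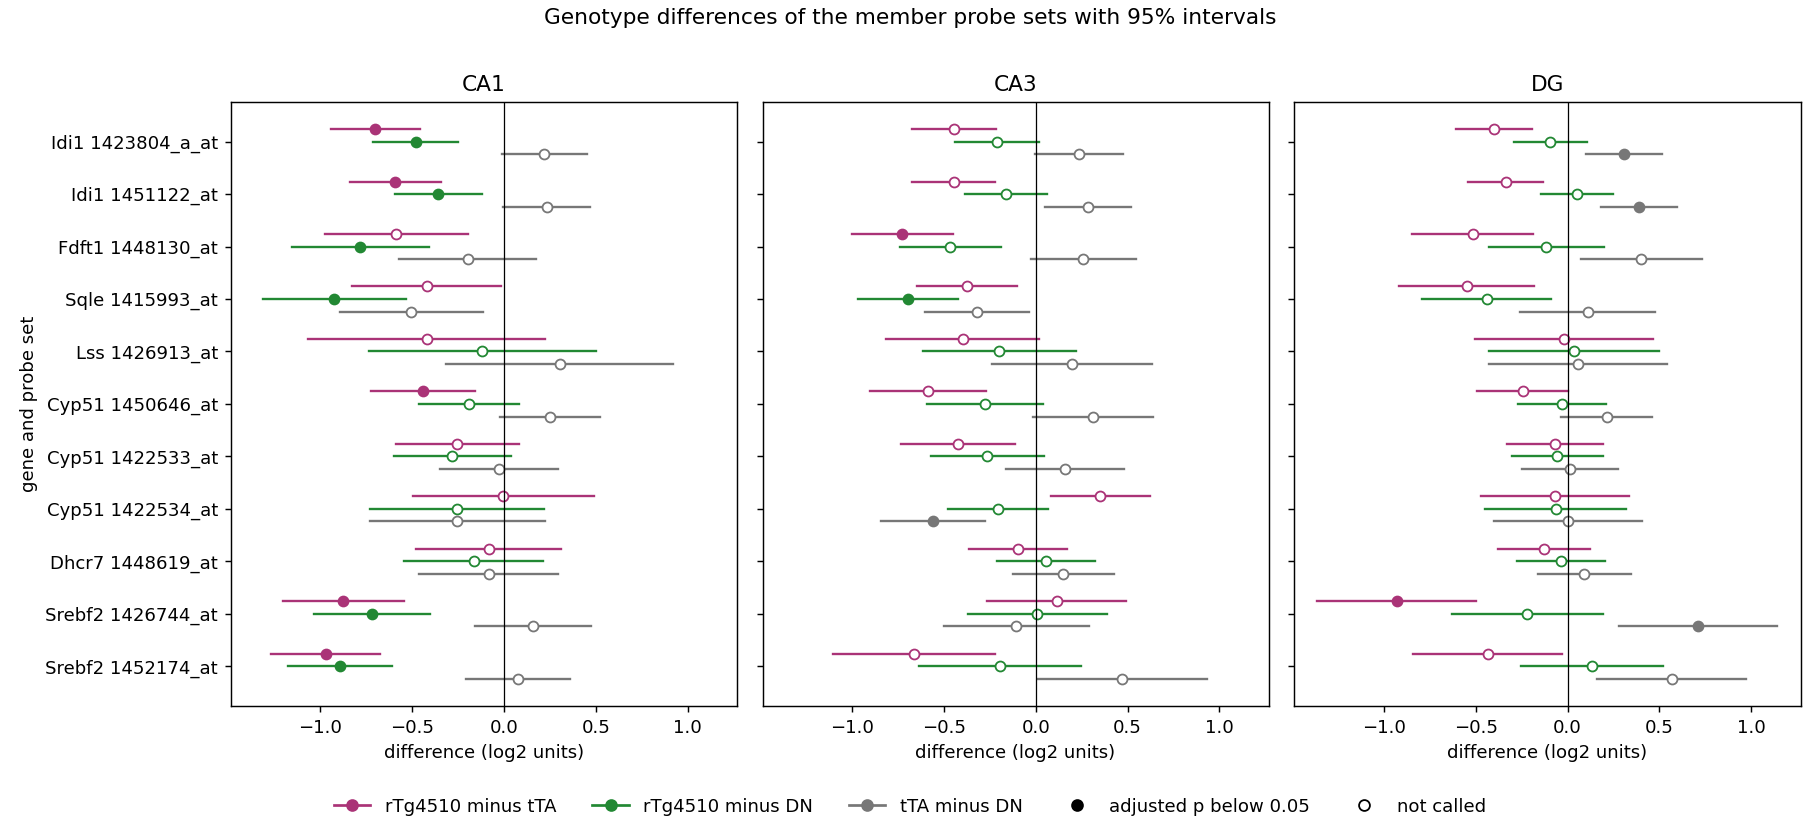
Differences between genotypes in log2 units (x axis) for the 11 member probe sets (y axis) in each subfield, with 95% intervals; filled circles passed an adjusted p of 0.05. In CA1 rTg4510 lies below tTA for every probe set, with filled circles for Idi1, Srebf2 and the brightest Cyp51 probe set, while most intervals of tTA minus DN in CA1 include 0.

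Markers of other cells moved with genotype in the same CA1 arrays. Between rTg4510 and tTA, 12 of 14 measured microglia markers, 8 of 10 astrocyte, 6 of 10 oligodendrocyte, 5 of 11 endothelial and mural, 4 of 7 meningeal and fibroblast and 7 of 11 inhibitory interneuron markers were higher, while 1 interneuron marker was lower. All 4 measured CA1 pyramidal markers were lower, and 0 of 10 pan-neuronal markers was called. Of all probe sets, 6.01% were higher and 4.62% lower in this comparison. The summed level of the microglia list rose from 1288 to 2021 in tTA CA1 to 3677 to 7264 in rTg4510 CA1, that of the astrocyte list from 5355 to 7627 to 9387 to 14959, and that of the CA1 pyramidal list fell from 2877 to 5053 to 893 to 2103, without overlap in any of the 3. Below the median probe set were 5 of the 14 microglia markers in tTA and 1 in rTg4510 CA1, and no RMA value is 0. The pan-neuronal sums overlapped, at 18812 to 22757 in tTA and 17698 to 25735 in rTg4510 CA1. Against DN CA1, where they were 23187 to 26175, 2 of the 10 pan-neuronal markers were lower in rTg4510, against 12.3% of all probe sets. These were Rbfox3 (-1.21) and Eno2 (-0.43). All 14 microglia, 10 astrocyte and 10 oligodendrocyte markers were higher in rTg4510 than in DN CA1, against 11.1% of all probe sets. Between rTg4510 and tTA in DG no marker of the 8 lists was called, in a comparison that called few probe sets of any kind. The part of the markers in the CA1 result was not tested.

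In CA3 and DG the rTg4510 minus tTA differences were mostly of the same sign and few were called. In CA3 9 of 11 probe sets lay below 0, where 54% of all probe sets did, with a median of -0.42 against -0.02. Unadjusted limma p-values below 0.05 were seen for 8 of the 11 in CA3, 6 in DG and 7 in CA1. The share of all probe sets below this value was not counted. Those in CA3 included the dimmest Cyp51 probe set, which was higher in rTg4510 (0.35). After adjustment 1 passed in CA3, Fdft1, against 0.491% of all probe sets that were lower. Fdft1 read 7.11, 7.17, 7.22, 7.33 and 7.37 in tTA CA3. The 6 rTg4510 mice ran from 6.15 through a median of 6.56 to 6.93, all below the tTA range. The difference was -0.73 (SE 0.13, 1.65-fold lower, adjusted p = 0.0161). Close to the threshold but not called were both Idi1 probe sets (-0.45 each, adjusted p = 0.0581 and 0.0509) and the brightest Cyp51 probe set (-0.59, adjusted p = 0.0679). Without rTg4510 mouse4549, with only probe sets above the median level, or in the fit to all 49 arrays, the CA3 comparison called 4 member probe sets, and with only rTg4510 and tTA arrays it called none. Against DN, Sqle was the 1 member called in rTg4510 CA3 (-0.70, adjusted p = 0.00739), against 1.2% of all probe sets that were lower, and a second probe set was called without rTg4510 mouse4600. In CA3 4 microglia markers and 1 astrocyte marker were higher in rTg4510 than in tTA, and 11 and 6 were higher than in DN; their part was not tested.

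In DG 11 of 11 probe sets lay below 0 between rTg4510 and tTA, where 51.3% of all probe sets did, with a median of -0.34 against -0.005. Of the 11, 1 was called, Srebf2 by 1426744_at, against 0.336% of all probe sets that were lower. It read 6.03, 6.48, 6.76, 6.81 and 6.91 in tTA DG and from 5.02 through a median of 5.69 to 6.15 in the 6 rTg4510 mice, with overlap at the edge, for a difference of -0.93 (SE 0.20, adjusted p = 0.0435). This call did not survive leaving out rTg4510 mouse4535, mouse4621, mouse4653 or mouse4666 or tTA mouse4570, mouse4580, mouse4592 or mouse4637 (adjusted p up to 0.106), or the methods' test (0.0719). The second probe set gave -0.43 (95% interval -0.84 to -0.03, adjusted p = 0.291). Idi1 did not overlap between the groups by either probe set (-0.40 and -0.34, adjusted p = 0.0598 and 0.0971), which 1.68% of all probe sets did.

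In DG it was the tTA mice that differed from the DN mice. Idi1 was higher in tTA by 0.31 and 0.39 (adjusted p = 0.0389 and 0.0109) and Srebf2 by 0.71 on 1426744_at (adjusted p = 0.0232), which made 3 of 11 probe sets against 7.22% of all probe sets that were higher, and all 11 lay above 0. On 1426744_at the DN mice ran from 5.48 through a median of 5.93 to 6.21, below 4 of the 5 tTA values. Between rTg4510 and DN in DG 0 of 11 were called, against 8.86% of all probe sets; Sqle alone had an unadjusted p below 0.05 (0.017), and the methods' test called none as well. For Srebf2 the interval of that difference was -0.63 to 0.19 on 1426744_at and -0.25 to 0.52 on 1452174_at. For Idi1 it was -0.29 to 0.10 on 1423804_a_at and -0.14 to 0.25 on 1451122_at. The tTA call of Idi1 1423804_a_at was lost without DN mouse4797, mouse4825, mouse4883 or mouse4886 or tTA mouse4570, mouse4592 or mouse4637 (adjusted p up to 0.0862). Its difference stayed between 0.24 and 0.37 without any 1 mouse. That of Srebf2 1426744_at was lost without DN mouse4886 or tTA mouse4570, mouse4580 or mouse4637 (up to 0.0615), with differences between 0.63 and 0.85. With the Actb 3-prime minus 5-prime difference as a covariate, which averaged -0.30 in DN DG and -0.61 in tTA DG, 0 of the 3 was called. The Srebf2 difference was then smaller, at 0.46 (adjusted p = 0.348), while those of Idi1 were larger, at 0.40 on 1423804_a_at and 0.46 on 1451122_at (adjusted p = 0.0793 and 0.0507). Astrocyte and microglia markers were also higher in tTA than in DN DG, 9 of 10 and 11 of 14, and their part was not tested.

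In CA3 the 1 member probe set called between tTA and DN, against 4.97% of all probe sets that were lower, was the dimmest of Cyp51, 1422534_at (-0.56, adjusted p = 0.0164). The call was lost without DN mouse4866 (0.0533), and the brightest Cyp51 probe set went the other way, at 0.31 (95% interval -0.02 to 0.64), not called.

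A single fit to the 49 arrays, in which the mouse was a random block, asked whether the rTg4510 minus tTA difference depended on the subfield. Of the 11 probe sets, 1 passed for rTg4510 minus tTA in CA1 against CA3, Srebf2 1426744_at, at -1.0 (SE 0.25, adjusted p = 0.0165), against 1.69% of all probe sets that were lower. In CA3 the 5 tTA mice read 6.29, 6.39, 6.47, 6.61 and 6.84 on this probe set and the 6 rTg4510 mice ran from 6.29 through a median of 6.58 to 7.27, so that the groups overlapped throughout, with a difference of 0.11 (95% interval -0.26 to 0.49). The second Srebf2 probe set did not share this: it was 0.66 lower in rTg4510 CA3 (95% interval -1.10 to -0.22, adjusted p = 0.139), and its CA1 against CA3 term was -0.30 (-0.81 to 0.21, adjusted p = 0.609). The probe sets thus disagreed on CA3 and not on CA1. No enzyme passed this test, the largest term being -0.37 for the dimmest Cyp51 probe set. For CA1 against DG 0 of 11 passed, against 5.45% of all probe sets, with unadjusted p below 0.05 for Idi1 1423804_a_at (-0.30, 0.0365) and Srebf2 1452174_at (-0.53, 0.0431). For CA3 against DG 0 of 11 passed, against 0.00884%, and Srebf2 1426744_at had an unadjusted p of 0.000113 (adjusted p = 0.198). None of the 11 passed for tTA minus DN between any pair of subfields either (0.72%, 1.65% and 1.24% of all probe sets called), by this model with or without the block. Unadjusted p-values below 0.05 were seen for 1, 3 and 2 of the 11 probe sets in these 3 comparisons, from Fdft1, Sqle, the dimmest Cyp51 probe set and Srebf2 1426744_at. For these too the share of all probe sets was not counted.

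Beyond the members, few enzymes differed between rTg4510 and tTA in CA1. Of the 11 measured enzymes outside the members, none was lower and 1 was higher, Ebp, the delta8-delta7 sterol isomerase (0.46, adjusted p = 0.0368). Their median was -0.22, against -0.03 over all probe sets. Over all 17 measured enzymes, members included, the median was -0.29. Of the 17, 2 were lower, the members Idi1 and Cyp51, against 4.62% of all probe sets, and 1 was higher, against 6.01%. The count of 3 called fell to 1 without tTA mouse4570 or mouse4626 and without rTg4510 mouse4535 or mouse4666, each left out alone. Against DN, 7 of the 17 were lower in rTg4510 CA1, against 12.3% of all probe sets, and 1 was higher, against 11.1%. Outside the members 4 of 11 were lower and 1 was higher. Msmo1 differed by -1.09 (adjusted p = 0.00224), Fdps by -0.70, Hsd17b7 by -0.68 and Nsdhl by -0.60, with Idi1, Fdft1 and Sqle above, and Mvk, mevalonate kinase, by 0.38. In rTg4510 CA3 2 enzymes were lower than in DN, Sqle and Msmo1 (-0.50), against 1.2% of all probe sets, and 1 without DN mouse4797. Mvk was also higher in tTA than in DN CA1 (0.62), Fdps lower (-0.47), and Lbr, a sterol C14-reductase of the nuclear envelope, lower in tTA than in DN DG (-1.22).

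**Figure D4:**
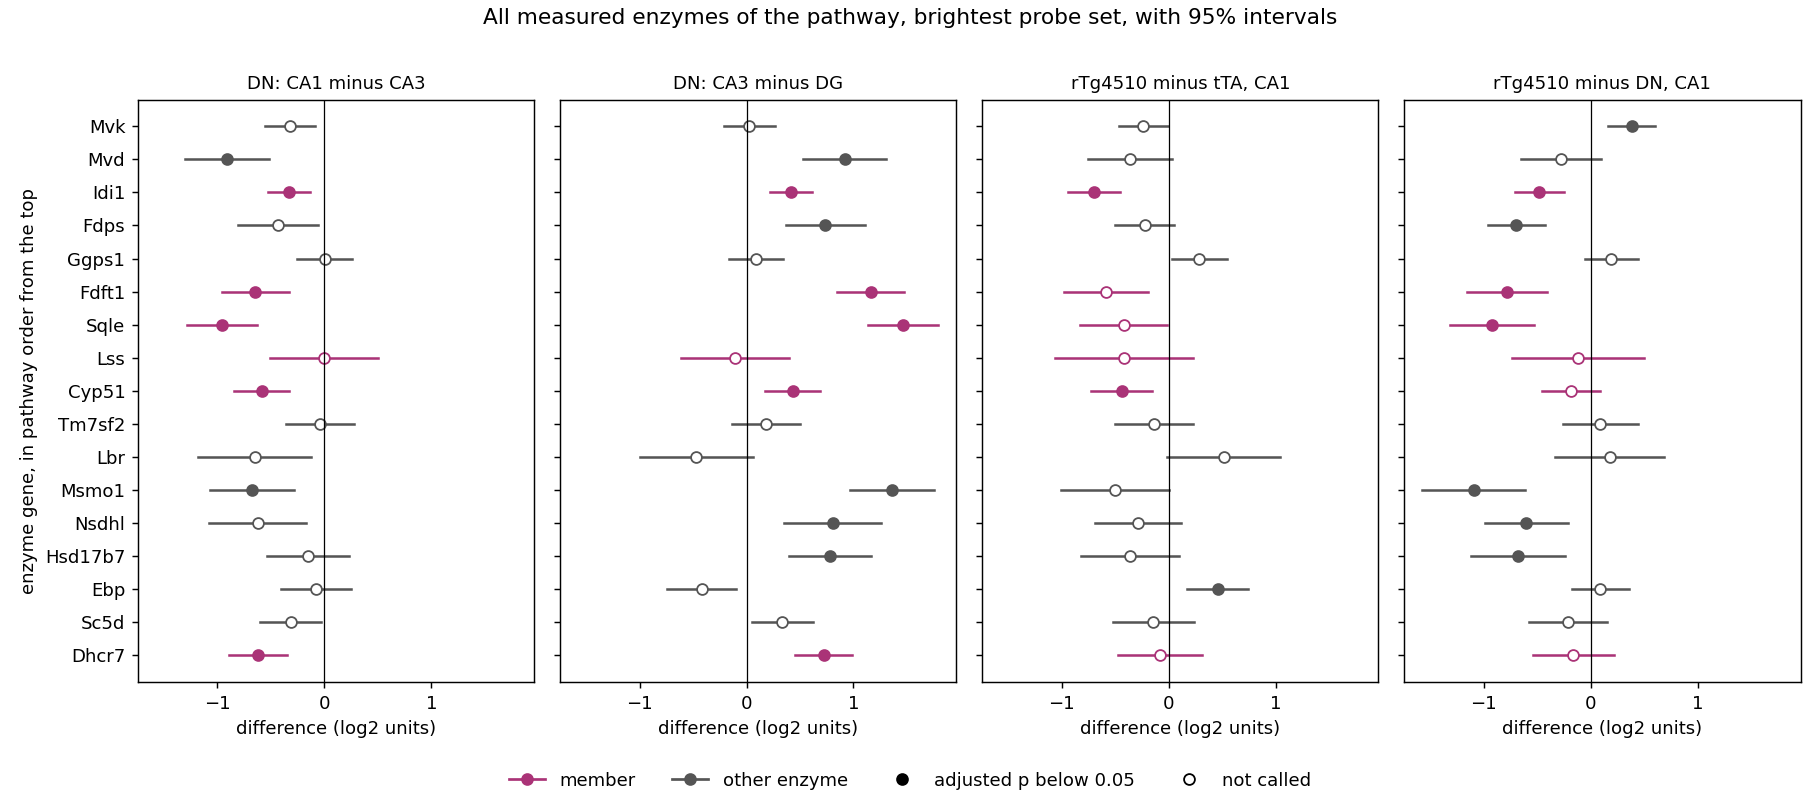
The 17 measured enzymes in pathway order (y axis, members in purple) with differences in log2 units (x axis) and 95% intervals in 4 comparisons; filled circles passed an adjusted p of 0.05. Between CA3 and DG of DN mice 10 filled circles lie to the right, and in rTg4510 minus DN in CA1 7 filled circles lie to the left, from Idi1 to Hsd17b7, and 1, that of Mvk, to the right.

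Of the 4 measured genes of SREBP control, 3 were lower in rTg4510 than in DN CA1, against 12.3% of all probe sets. One of them was the member Srebf2, described above. The others were Scap, which encodes the sterol-sensing escort (-0.47, adjusted p = 0.035), and Mbtps1, the site-1 protease (-0.56, adjusted p = 0.0016). Between rTg4510 and tTA in CA1 1 of the 4 was lower, Srebf2 again, against 4.62%. Insig2, which retains the SCAP complex in the endoplasmic reticulum, was 0.44 lower in rTg4510 than in DN DG (adjusted p = 0.0214). Mbtps1 was 0.40 lower in tTA than in DN DG, where Srebf2 was higher.

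Among genes of cholesterol handling, those that passed the test between rTg4510 and tTA in CA1 were higher. Of 4 measured other SREBP-2 targets, 2 were higher in rTg4510 than in tTA CA1, against 6.01% of all probe sets. Both are exporters of cholesterol from lysosomes: Npc1 (0.98, adjusted p = 0.0029) and Npc2 (0.84, adjusted p = 0.00684). Of 11 measured genes of transport and turnover, 3 were higher, against 6.01% of all probe sets, and none was lower, against 4.62%. The higher ones were Apoe (0.95, adjusted p = 0.0118), Lipa, the lysosomal acid lipase (0.62, adjusted p = 0.0154), and Ch25h, cholesterol 25-hydroxylase (0.41, adjusted p = 0.0176). Of 9 genes of fatty acid synthesis, 1 was higher, against 6.01% of all probe sets. This was Acly, which makes cytosolic acetyl-CoA (0.78, adjusted p = 0.0065). Acly was lower in tTA than in DN CA1 (-0.59, adjusted p = 0.0186). The CA1 differences of Npc1, Npc2, Acly and Apoe each exceeded those in CA3 in the interaction test (0.81, 0.70, 1.21 and 1.07, adjusted p = 0.0455, 0.0216, 0.00645 and 0.0204). Apoe and Npc2 are abundant in astrocytes and microglia, whose markers were higher in the same arrays, and the part of these cells was not tested. Against DN, 2 of the 4 other targets were higher in rTg4510 CA1 (Npc2 by 1.45 and Npc1 by 0.53), against 11.1% of all probe sets. Of the 11 genes of transport and turnover, 4 were higher and 2 lower, against 11.1% and 12.3% of all probe sets. Apoe (1.71) and Lcat, which esterifies cholesterol on lipoproteins (1.11), led those that were higher. Cyp46a1 was 0.81 lower (adjusted p = 6.03e-05) and Mylip, which degrades lipoprotein receptors, 1.22 lower (adjusted p = 0.000632). Cyp46a1 was also lower in tTA than in DN CA1 (-0.57), and Apoe was higher in tTA than in DN in CA1, CA3 and DG (0.76, 1.20 and 1.22). Of the 9 genes of fatty acid synthesis, 2 were higher and 2 lower in rTg4510 than in DN CA1. Acly was not among them. The shares of all probe sets were 11.1% and 12.3%.

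The genes with a group pattern most like that of Srebf2 were sought among 6147 named genes above the median level, by Pearson's r over the 9 group means of the brightest probe sets. Dynlrb1 (r = 0.965), Adgrl1 (0.940) and Rab2b (0.934) came first, and 7 genes lay above 0.9. For Idi1 the first were Parp6 (0.98), Surf6 (0.976) and Klhl22 (0.967), among 24 above 0.9. The 9 means share mice and layers, so that these are descriptions.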

How the data were processed

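RNA from the captured layers had been amplified and labelled by the study with Ovation Pico WTA reagents and hybridized to Affymetrix HT-MG-430A arrays. The authors deposited RMA values (background correction, quantile normalization and probe summary; no version is named). Anti-log RMA is named in the methods, whereas the deposited values run from 1.94 to 13.52 with near-equal array medians and were taken as log2. The intensities behind them were not used here, so depth and batch could not be examined; precision is limited by 5 or 6 mice per group.

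Groups came from the genotype and titles of the samples. limma 3.58.1 in R 4.3.3 was fitted to 22626 non-control probe sets, within each subfield for genotypes (a 1-way model, as in the study) and over 49 arrays with the mouse as a random block for subfields and interactions, with Benjamini-Hochberg adjustment and a threshold of 0.05. The pairing comes from shared mice: same-mouse residuals correlated at a median of 0.119 over 47 pairs. A gene outside the members is given by its brightest probe set. Symbols came from GEO's platform annotation: 18003 probe sets had 1 symbol, 287 several and 4336 none. Alternatives were a second quantile normalization, a filter on dim probe sets, array weights, a trended and robust prior, the least significant difference test of the methods, the Actb covariate, other sets of arrays, no mouse block, and leaving out each mouse. The fits were tested on simulated data. Members and gene lists (enzymes, SREBP control, other SREBP-2 targets, fatty acid synthesis, transport and turnover, and 8 marker lists) were chosen with earlier results of these data known. Named were all members, the called list genes in rTg4510 minus tTA CA1, and up to 3 called genes of largest difference per list elsewhere, with the 3 genes most like Srebf2 and Idi1; the layer markers were picked after values were seen.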

Additional observations from a re-analysis of the deposited data

Results flagged for a closer look

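In 6 of 99 combinations of probe set and group, 1 array stood apart from its group by Dixon's criterion, which chance alone gives in about 1 of 20 groups. The Idi1 probe set 1423804_a_at read 10.22 in rTg4510 CA1 mouse4549, where the next value was 9.76. Fdft1 read 6.54 in tTA CA1 mouse4637 (next 6.10) and 4.80 in rTg4510 CA1 mouse4600 (next 5.63). Sqle read 5.83 in tTA CA1 mouse4592 (next 6.43). Lss read 5.52 in tTA CA3 mouse4580 (next 4.89), and Srebf2 1452174_at read 6.92 in tTA DG mouse4570 (next 6.16). The rTg4510 minus tTA difference of Srebf2 1426744_at differed between CA1 and CA3 by -1.0 in the interaction test, which the second Srebf2 probe set did not repeat (-0.30).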

How the results depend on the processing

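Between rTg4510 and tTA in CA1, 4 to 6 member probe sets were called under the 9 alternatives and 4 to 6 without any 1 mouse, and against DN 5 to 6 in both. The CA3 and DG counts moved more. For rTg4510 minus tTA in CA3 the count of 1 became 0 with only the 2 genotypes compared, 2 after quantile normalization again or with the least significant difference on anti-log values, 3 with a trended and robust prior, 4 without dim probe sets and 4 with all 49 arrays, and ran from 1 to 4 without 1 mouse (4 without rTg4510 mouse4549). In DG the count of 1 became 0 with only the 2 genotypes, array weights, either least significant difference test or the Actb covariate, and 2 with quantile normalization, the trended prior, no dim probe sets or all 49 arrays, and ran from 0 to 2 without 1 mouse (2 without rTg4510 mouse4549, 0 without the mice named above). For rTg4510 minus DN in CA3 the count of 1 became 2 with array weights and without dim probe sets (1 to 2 without 1 mouse, 2 without rTg4510 mouse4600). For tTA minus DN the CA1 count of 0 became 1 with only the 2 genotypes, without dim probe sets, with the anti-log test and with all 49 arrays. The CA3 count of 1 became 2 with only the 2 genotypes and 0 without dim probe sets, with the Actb covariate and with all 49 arrays (0 to 1 without 1 mouse, 0 without DN mouse4866). The DG count of 3 became 0 with the Actb covariate (1 to 4 without 1 mouse, 1 without DN mouse4886 or tTA mouse4570). The cause was not tested.

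Without the replicate block the 49-array model called 1 member probe set for rTg4510 minus tTA in CA1 against CA3, 6, 4 and 8 between the DN subfields and 0 elsewhere, the same counts as with the block. The other alternatives of that model left these counts as they were, and leaving out 1 mouse gave 4 to 6, 3 to 4 and 7 to 8 for the DN subfields. Values near or below the median probe set level of 5.04, those of Lss and the dimmest Cyp51 probe set, limit what can be seen for these transcripts.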
